A study of Homo sapiens with 10 samples.

Results

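The genes described are the nuclear genes for proteins of the mitochondrial ribosome. They were taken as the autosomal protein-coding genes of GENCODE release 44 whose symbol is MRPL or MRPS followed by a number. This gave 78 of 19111 autosomal protein-coding genes, 49 with an MRPL symbol and 29 with an MRPS symbol, spread over 21 chromosomes. Every one has a MANE transcript and a nucleosome position on each side of its start within 1500 bp, as do 18569 of all the genes. The chromatin came from human induced pluripotent stem cells (hiPSCs) of the line PB010.5, which all samples share and in which the EEF2 locus carries an inserted FUCCI reporter. Chromatin was digested for 5 min with micrococcal nuclease (MNase), which cuts linker DNA, with 1 library for each of 5 amounts of enzyme, from 0.5 U and 1 U through 3 U to 6 U and 10 U. Each library was sequenced as 150-bp and as 50-bp reads, which makes 10 samples. The authors deposited 1 pooled list of nucleosome positions, so there is no value per MNase amount, no replicate and no test below.

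The mitochondrial ribosome translates the few messages of mitochondrial DNA, all of them for membrane subunits of the oxidative phosphorylation complexes. Its RNAs are made in the organelle, but its proteins are encoded in the nucleus, translated in the cytosol and imported. MRPL symbols mostly name proteins of the large subunit, which forms peptide bonds, and MRPS symbols mostly those of the small subunit, which reads the message. The promoters of such housekeeping genes are commonly rich in CpG and lack a TATA box, and NRF1, ETS family factors such as GABP, and YY1 are known regulators of nuclear genes for mitochondrial proteins. An active promoter usually holds a nucleosome-depleted stretch bounded by the −1 nucleosome upstream and the +1 nucleosome downstream of the transcription start site (TSS).

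The letters of these motifs lay close to the TSS in many of the genes, and the DNA shown here is where the sequence and the nucleosome map meet. In 9 genes the YY1 letters AAGATGGCG contained the annotated start codon. These were 9 of the 13 members that held the letters (69.2%), against 256 of 548 such genes overall (46.7%), a difference that was not tested. The 30-base windows of the 9 genes on the gene's strand of GRCh38, with the YY1 letters in capitals, are as follows.
MRPL22, chr5:154941098-154941127, plus strand: gggagggcgaAAGATGGCGgcggcagtact
MRPL38, chr17:75904859-75904888, minus strand: ggccggagggAAGATGGCGgcgccctggtg
MRPL46, chr15:88467361-88467390, minus strand: gggagaacgaAAGATGGCGgcgcccgtaag
MRPL50, chr9:101398576-101398605, minus strand: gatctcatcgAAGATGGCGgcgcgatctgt
MRPS10, chr6:42217833-42217862, minus strand: cgggaccggcAAGATGGCGgcgcggacagc
MRPS18A, chr6:43687763-43687792, minus strand: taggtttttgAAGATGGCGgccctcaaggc
MRPS18B, chr6:30617853-30617882, plus strand: ggcgtacgtcAAGATGGCGgcgtctgtatt
MRPS24, chr7:43869479-43869508, minus strand: cgcttggcccAAGATGGCGgcctccgtgtg
MRPS30, chr5:44808950-44808979, plus strand: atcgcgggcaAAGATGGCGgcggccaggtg
The same letters thus stand over the first codons of genes for both subunits, and in each window the ATG inside the capitals is the start codon.

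ETS letters (CCGGAAG, or CTTCCGG on the other strand) had 37 of 44 matches centred before the TSS and 7 after it. The search ran from 250 bp before to 50 bp after the TSS, so this split was largely set by the window. In 13 genes ETS letters fell within the 60 bases before the TSS and inside the stretch that no nucleosome position covered. In 8 of these no annotated exon overlapped the 60 bases. Of these, 7 windows, ending at the base before the TSS on the gene's strand of GRCh38 and with the ETS letters in capitals, are as follows.
MRPL18, chr6:159790407-159790466, plus strand: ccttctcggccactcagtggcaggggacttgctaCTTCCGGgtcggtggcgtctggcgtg
MRPL20, chr1:1407294-1407353, minus strand: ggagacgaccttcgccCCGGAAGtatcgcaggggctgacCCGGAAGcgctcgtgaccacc
MRPL54, chr19:3762622-3762681, plus strand: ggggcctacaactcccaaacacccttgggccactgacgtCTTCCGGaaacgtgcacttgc
MRPS10, chr6:42217862-42217921, minus strand: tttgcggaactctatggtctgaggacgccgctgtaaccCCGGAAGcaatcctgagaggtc
MRPS21, chr1:150293801-150293860, plus strand: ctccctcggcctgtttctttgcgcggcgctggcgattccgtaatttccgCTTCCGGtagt
MRPS26, chr20:3045992-3046051, plus strand: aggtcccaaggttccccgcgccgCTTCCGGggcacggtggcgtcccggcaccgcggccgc
MRPS31, chr13:40771191-40771250, minus strand: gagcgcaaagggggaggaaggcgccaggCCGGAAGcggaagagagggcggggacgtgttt
MRPL20 held the ETS letters at 2 places in its window and the other 6 genes at 1. The counts of 13 and 8 genes were not made over all genes, so whether they are unusual was not tested.

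Each nucleosome in the list is an interval of 140 bp with a score, a height on the authors' own scale that rises in steps of 1.23 and has a genome-wide median of 14.8. The reads behind a score are unknown, and 94.4% of midpoints lie on a 10-bp grid, which limits every distance to about 10 bp. The gap is the distance between the midpoints of the nearest positions upstream and downstream of the canonical TSS, so that a gap of 300 bp leaves 160 bp uncovered. Comparison values are from the other autosomal protein-coding genes, in 10 bins by the GC content of the 1000 bp around the TSS, weighted so that each bin counts as often as among the 78 genes. The comparison genes include genes that these cells may not express, since no expression was measured in the data used here.

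Mitochondrial ribosomal protein genes had wider gaps at the TSS than genes of the same promoter GC. Their median gap was 310 bp, with quartiles of 212.5 and 358.75 bp, against 220 bp with quartiles of 170 and 310 bp for the comparison genes. Among the genes of its own GC bin, the median member stood at percentile 75.9. In 39 of the 78 genes the gap stood above percentile 75 and in 7 below percentile 25. A gap of at least 300 bp was found in 43 genes, or 55.1% (exact 95% binomial interval 43.4% to 66.4%), where the share of all autosomal protein-coding genes was 27.2% and that of the comparison genes 27.5%. Such intervals cover counting error only. No midpoint lay in the 200 bp upstream of the TSS in 31 genes, or 39.7% (interval 28.8% to 51.5%), against 23.7% of all genes. The share was 37.8% in proteasome genes and 31.3% in cytosolic ribosomal protein genes, both inside that interval. In other genes of mitochondrial translation it was 26.7%. Across the 78 genes, which share 1 pooled list and are not independent replicates, Spearman's rho between gap and promoter GC was 0.044.

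**Figure D1:**
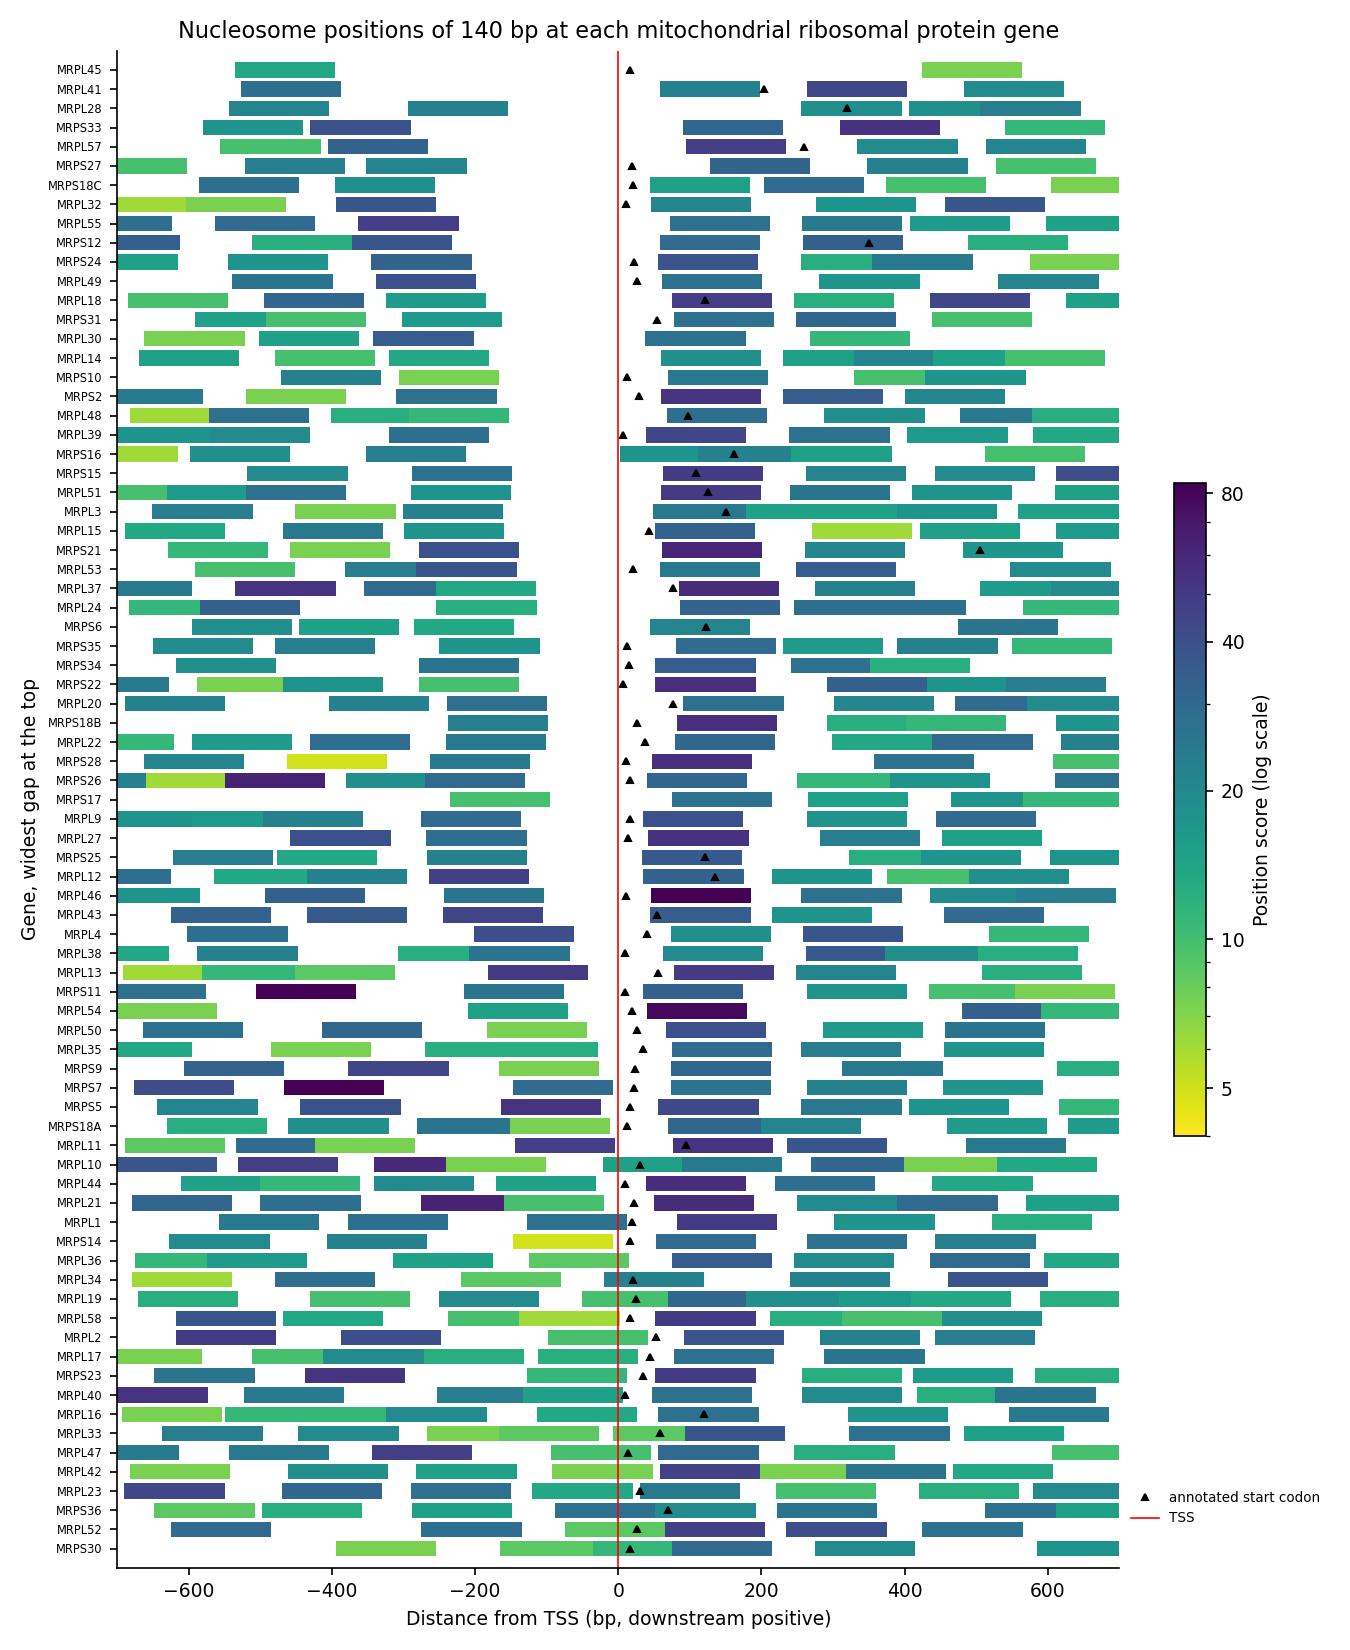
Nucleosome positions (bars of 140 bp, coloured by score on a log scale) within 700 bp of the TSS (red line) at each of the 78 genes, ordered by gap, with the annotated start codon as a triangle where it lies within 700 bp. The widest gap is at MRPL45 (960 bp), the narrowest at MRPS30 (130 bp), and the first downstream position forms a near-vertical column while the upstream edge moves.

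How much wider the gap was depended on weak positions. With only the positions at or above the genome-wide median score, the median gap was 350 bp and the excess over the comparison genes fell from 90 bp to 20 bp. The share of members with at least 300 bp was then 78.2% against 60.0% of the comparison genes. Among the 35 members with a gap under 300 bp, the upstream position had a median score of 12.3 and lay below the genome-wide median in 20. Among the 43 with at least 300 bp it had a median score of 24.7 and lay below that median in 9. Over all 78 genes, 29 upstream positions scored below the genome-wide median, or 37.2%, and the share of all genes was 37.5%.

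The downstream edge of the gap varied less between its quartiles than the upstream edge. The first midpoint downstream of the TSS lay at a median of 128 bp, with quartiles of 115.25 and 145 bp, against 112 bp with quartiles of 71 and 140 bp in the comparison genes. It was within 50 bp of 125 bp in 69 of 78 genes, or 88.5%, compared with 62.3% of all genes. The value of 125 bp is the maximum of these genes' own summed profile, so their share was favoured in advance. The whole range of the first downstream midpoint was 19 bp (MRPL19) to 494 bp (MRPL45). The upstream midpoint had its quartiles at −230.5 and −95.5 bp and ranged from 5 bp (MRPL52) to 466 bp (MRPL45) before the TSS. Summed over the genes, the +1 maximum stood at 125 bp with a density of 3.18 times that of the flanks 1000 to 1500 bp away, and the comparison genes had theirs at the same place with 1.82 times. The height depended on the setting: it was 1.56 against 1.31 in 25-bp bins, 6.74 against 2.75 with weak positions left out and 7.92 against 3.19 with weights by score. At the main setting, cytosolic ribosomal protein genes reached 2.98, proteasome genes 2.97 and other genes of mitochondrial translation 3.09. The −1 maximum stood at −195 bp with 1.59 times the flanks (counting interval 1.07 to 2.29). In the comparison genes it stood at −225 bp with 1.13 times, a height inside that interval.

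Nucleosomes further into the genes were also in register. The +2 maximum stood at 325 bp (2.31 times the flanks, against 1.48) and the +3 maximum at 505 bp (1.54 against 1.27). No interval was calculated for these heights. Like gene sets had such maxima too. The +2 and +3 heights were 2.25 and 1.71 in cytosolic ribosomal protein genes and 2.64 and 1.87 in proteasome genes. In other genes of mitochondrial translation they were 2.28 and 1.88. Between the +1 and +2 maxima the members' density fell to 0.0513 at 215 bp, against 0.675 at 205 bp in the comparison genes. The minimum there was 0.147, 0.220 and 0.134 in the like sets, in the same order. In the linker from 185 to 245 bp, 1 midpoint was found in all 78 genes, where the comparison genes weighted to the same number had 16.1. That stretch is centred on the members' own minimum at 215 bp, so a low count there was favoured in advance. From 0 to 50 bp there were 4 midpoints, against 13.4. That stretch holds the members' own minimum near the TSS, at 5 bp, so a low count was favoured there too. In the 200 bp upstream of the TSS the log2 ratio of midpoint density to the flanks was −0.61 (51 midpoints, exact 95% interval −1.06 to −0.19), and in the comparison genes it was −0.20, which lies just inside that interval.

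**Figure D2:**
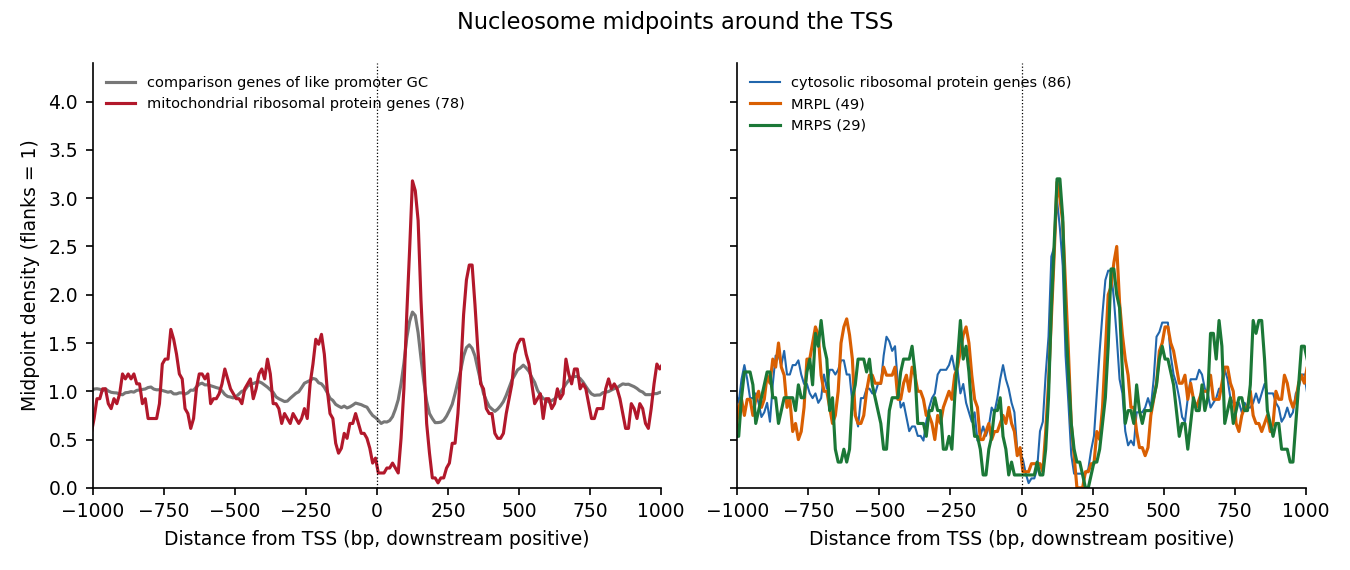
Density of nucleosome midpoints (flanks = 1) against distance from the TSS in bp, in 10-bp bins smoothed over 5 bins. Left, the 78 genes reach 3.18 at 125 bp and 0.154 at 5 bp, where the comparison genes reach 1.82 at 125 bp and 0.667 at 15 bp. Right, the +1 maximum of MRPL genes (3.17), MRPS genes (3.20) and 86 cytosolic ribosomal protein genes (2.98) is at 125 bp in each.

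The first downstream position scored higher than in genes of the same promoter GC, while the window as a whole did not. The median score of that position was 30.8, with a range of 7.40 to 83.9, against a median of 24.7. The median member stood at percentile 69.2 of its GC bin, with 34 genes above percentile 75 and 7 below percentile 25. At least 2 times the genome-wide median was reached in 47 of 78 genes, or 60.3%, against 31.8% of all genes. High scores were not particular to these genes. The share was 68.7% in cytosolic ribosomal protein genes (median score 37.0) and 54.1% in proteasome genes (median 30.8). In other genes of mitochondrial translation it was 43.3% (median 27.8). The first upstream position had a median score of 20.4 against 17.3, and the mean score over the window of 1500 bp either side had a median of 18.8 against 19.0. The downstream position scored above the upstream one in 55 genes, or 70.5% (interval 59.1% to 80.3%), and did so in 60.9% of all genes and 63.2% of the comparison genes, values inside that interval.

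MRPL46, a large-subunit protein with no bacterial counterpart, had the highest score of a first downstream position, 83.9 at 116 bp (chr15:88467202-88467341). MRPL54, another mitochondria-specific protein, followed with 79.0 at 110 bp (chr19:3762722-3762861), and its ETS letters lie in the window printed above. MRPS21, which has a bacterial counterpart in the small subunit, had 60.5 at 131 bp. MRPL21 and MRPL37 had 58.0 each, at 120 and 155 bp. All 5 lay within 50 bp of the +1 maximum.

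The lowest scores were mostly away from that place. MRPL45 had 7.40 at 494 bp, MRPL33 had 8.64 at 63 bp and MRPL19 had 9.87 at 19 bp. MRPS30 had 11.1 at 35 bp. MRPL10, a protein of the stalk that recruits translation factors, had 14.8 at 49 bp, and MRPS18C tied with it at 14.8 but at 114 bp. In MRPL33, MRPL19, MRPL10 and MRPS30 a further midpoint followed at 163, 139, 159 and 145 bp, so a weak position stood in front of one near the usual place.

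**Figure D3:**
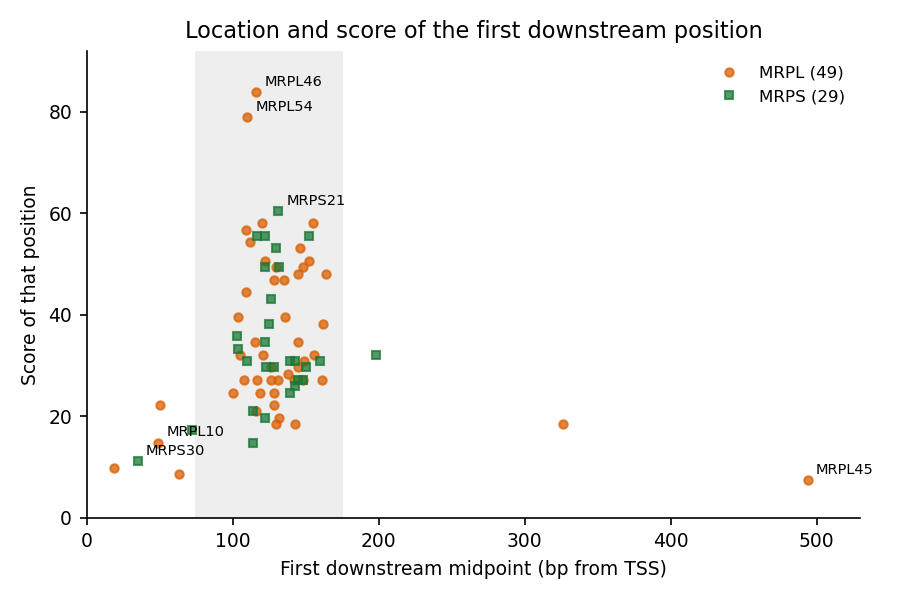
Score of the first downstream position against the distance of its midpoint from the TSS in bp, for 49 MRPL genes (circles) and 29 MRPS genes (squares). The shaded band from 75 to 175 bp holds 69 of the 78 genes, with MRPL46 (83.9) highest and MRPL45 (494 bp, 7.40) farthest out.

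The widest gaps were of several kinds. At MRPL45, whose protein holds the ribosome at the inner membrane near the exit of the peptide tunnel, the gap was 960 bp, between chr17:38296632-38296771 and chr17:38297592-38297731. Only 4 positions were called in its whole window, where the median over the 78 genes was 15, so the width there stands beside a sparse map, whose part in it was not tested. Without MRPL45 the +1 maximum stayed at 125 bp, with 3.20 times the flanks.

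At MRPL41, a mitochondria-specific protein, the gap of 585 bp lay between positions at −457 and 128 bp with scores of 28.4 and 22.2. MRPL28 had 550 bp, with its first downstream midpoint at 326 bp. MRPS33 had 520 bp, from −360 to 160 bp, with scores of 39.5 and 30.8. MRPL57 had 500 bp, from −336 to 164 bp, and its promoter is shared with SKA3, a kinetochore protein gene whose start is 106 bp away. Apart from MRPL45 and MRPL28, these genes kept a first downstream midpoint between 128 and 164 bp, and their gaps were wide on the upstream side. MRPL41 and MRPL57 also stood in sparse windows, with 9 positions each, and MRPL28 and MRPS33 had 14 each.

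The narrowest gaps had a weak position over or near the TSS. MRPS30, whose protein sits in the large subunit despite its name, had 130 bp, so its positions at −95 and 35 bp overlapped and scored 8.64 and 11.1. MRPL52 had 140 bp, with a position centred at −5 bp that scored 8.64 and a next one at 135 bp that scored 46.9. MRPL42 had 150 bp with 7.40 at −22 bp and 46.9 at 128 bp, and MRPL23, a protein at the tunnel exit, had 150 bp with 13.6 at −50 bp and 24.7 at 100 bp. MRPS36 differed, with 140 bp and the higher score upstream, 27.1 at −18 bp against 19.7 at 122 bp. Its product has since been assigned to the 2-oxoglutarate dehydrogenase complex instead of the ribosome.

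MRPS genes had the wider gaps of the pair of subunits. The median was 330 bp in the 29 MRPS genes and 290 bp in the 49 MRPL genes, and at least 300 bp was found in 20 MRPS genes (69.0%, interval 49.2% to 84.7%) and 23 MRPL genes (46.9%, interval 32.5% to 61.7%). These intervals overlap, and the difference was not tested. The first downstream midpoint (medians of 126 and 128 bp) and its score (median 30.8 in each) were alike in value. The log2 density in the 200 bp upstream was −1.0 for MRPS genes (15 midpoints) and −0.42 for MRPL genes (36 midpoints). The 46 genes with a bacterial counterpart had a median gap of 310 bp and the 32 mitochondria-specific ones 320 bp.

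Several small-subunit proteins have known roles. MRPS12, of the decoding centre, had a gap of 430 bp from −302 to 128 bp. MRPS5, near the path of the message, had 220 bp with scores of 53.1 upstream and 43.2 downstream, a high position on each side of a narrow gap. MRPS2, MRPS16 and MRPS22, in which variants are known to cause defects of oxidative phosphorylation, had 370, 355 and 330 bp. In MRPS16 the first downstream midpoint was at 72 bp with a score of 17.3, and in MRPS2 and MRPS22 it was at 130 and 122 bp with 53.1 and 55.5.

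The MRPS18 paralogues come from a duplicated gene and have different places in the ribosome. MRPS18A, whose product sits in the large subunit, had a gap of 220 bp. MRPS18B and MRPS18C, whose products sit in the small subunit, had 320 and 440 bp. Their first downstream scores were 30.8, 55.5 and 14.8, so neither the gap nor the score was shared among the paralogues.

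In the large subunit, MRPL3, close to the peptidyl transferase centre, had 350 bp. MRPL11 and MRPL12, of the stalk region, had 220 and 300 bp, with a high score upstream in both (48.1 and 46.9). MRPL44, which has a fold like that of RNase III, had 210 bp and a first downstream score of 56.8. MRPL58, a peptidyl-tRNA hydrolase that releases stalled peptides, had 190 bp, with 6.17 upstream and 50.6 downstream. The 5 gaps ran from 190 to 350 bp, on either side of the median of all 78 genes.

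**Figure D4:**
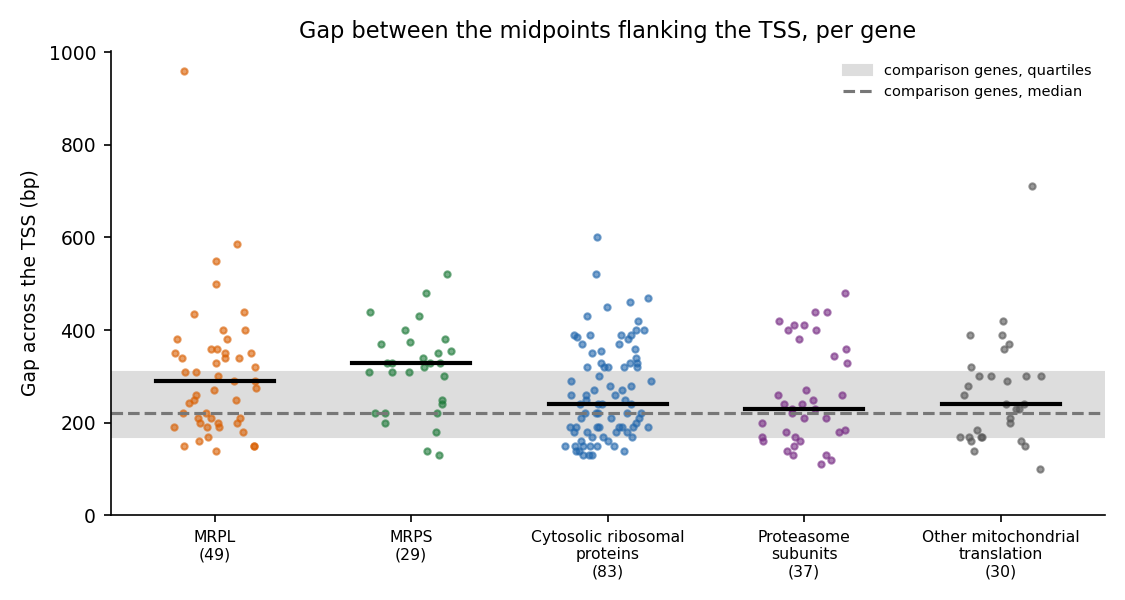
Gap in bp between the midpoints flanking the TSS for each gene (points) and its median (black line) in MRPL (290), MRPS (330), cytosolic ribosomal protein (240), proteasome (230) and other mitochondrial translation genes (240). The grey band and dashed line give the quartiles (170 and 310) and median (220) of the comparison genes.

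Like gene groups had narrower median gaps, and only the cytosolic ribosomal protein genes had the first downstream nucleosome near 125 bp as often. Of 83 such genes with a position on each side, 77 had that midpoint within 50 bp of 125 bp (92.8%). The share of all genes was 62.3%, and the value of 125 bp was taken from the members' own maximum. A gap of at least 300 bp was found in 30 of the 83 (36.1%), and their median was 240 bp. Of 37 genes on the proteasome list, 27 had the midpoint there (73.0%, interval 55.9% to 86.2%) and 12 reached 300 bp, with a median gap of 230 bp. The other genes of mitochondrial translation, a list of 30, had 23 there (76.7%, interval 57.7% to 90.1%). Both of these intervals hold the share of all genes. The median gap over the 30 genes was 240 bp, with 11 at or above 300 bp. Within that list, 8 of 15 assembly and rRNA modification factors reached 300 bp (median 300 bp), 2 of 10 translation factors (185 bp) and 1 of 5 ribosomal subunits without an MRP symbol (240 bp). None of these differences was tested. The proteasome and cytosolic ribosomal lists were taken by symbol wherever they are used, so they hold some genes that encode no such subunit. Among these are PSMC3IP, which is in both proteasome counts (gap 380 bp, midpoint at 147 bp), and RPS19BP1. The ribosomal list also holds the readthrough genes RPS10-NUDT3 and RPL17-C18orf32.

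The annotated start codon stood inside the gap in most of the genes. The 78 genes have short leaders: the annotated start codon lay at a median of 30.5 bp from the TSS, against 193 bp in the comparison genes, and the first exon had a median of 111 bp against 174 bp. The start codon lay in the uncovered stretch across the TSS in 44 genes, or 56.4% (interval 44.7% to 67.6%), against 14.1% of all genes and 15.2% of the comparison genes. It lay inside the first downstream position in 19 genes, or 24.4%, where the share of all genes was 27.2%. Among genes whose start codon is at most 100 bp from the TSS, the uncovered stretch held it in 44 of 56 members (78.6%), against 38.5% of all such genes. The length of the leaders within that limit was not matched, and its part in these shares was not tested. In the cytosolic ribosomal protein genes, whose start codon lay at a median of 127 bp, the stretch held it in 24 of 83. With leaders of any length, it did so in 14 of 37 proteasome genes and 12 of 30 other genes of mitochondrial translation. Within the latter list, these were 9 of 15 assembly and rRNA modification factors, 1 of 10 translation factors and 2 of 5 ribosomal subunits. The share of the assembly and rRNA modification factors was thus no lower than that of the members. Differences between these sets were not tested.

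The first downstream nucleosome mostly covered coding sequence and intron. At the median it held 0 bp of 5′ untranslated and 47 bp of coding sequence, with 84.5 bp of intronic DNA, each median taken on its own, where the comparison genes had medians of 59, 0 and 0 bp. Coding sequence was inside it in 61 genes, or 78.2%, against 41.1% of all genes, and intron in 62, or 79.5%, against 45.7%. In proteasome genes the shares were 75.7% for coding sequence and 67.6% for intron. They were 28.9% and 94.0% in cytosolic ribosomal protein genes and 60.0% and 56.7% in other genes of mitochondrial translation. In 1 member, MRPS16, the first downstream position lay wholly in 5′ untranslated sequence.

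Many of the genes share a promoter with a gene on the other strand. The start of a protein-coding gene transcribed the other way lay within 1000 bp upstream in 26 of the 78, or 33.3% (interval 23.1% to 44.9%), against 9.79% of all genes. This was not particular to these genes. In other genes of mitochondrial translation the share was 30.0% (9 of 30), which lies inside that interval. It was 18.1% in cytosolic ribosomal protein genes and 10.8% in proteasome genes. Among the members the distance ran from 45 bp (MRPL27 and EME1) to 990 bp (MRPL54 and APBA3). The median gap was 315 bp with such a neighbour and 310 bp without, and with a limit of 500 bp between the starts the difference of 5 bp became −10 bp.

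These 26 genes made 25 pairs, since MRPL46 and MRPS11 are neighbours of each other. No midpoint lay between the starts in 13 pairs, 1 midpoint in 7, and 2 or more in 5. Where the starts were at most 200 bp apart, 12 of 14 pairs had none between them, so the same positions bounded both genes. For MRPS12 and SARS2, the gene for mitochondrial seryl-tRNA synthetase, the starts were 181 bp apart within a gap of 430 bp, and the first downstream positions scored 29.6 and 37.0. For MRPL43 and TWNK, the gene for the mitochondrial DNA helicase, they were 46 bp apart within 290 bp and scored 34.5 and 45.7. For MRPL49 and FAU, which encodes a protein of the cytosolic ribosome, they were 187 bp apart within 400 bp and scored 27.1 and 39.5.

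MRPL46 and MRPS11 encode proteins of different subunits from starts 320 bp apart. The only position between them, chr15:88467492-88467631, had a score of 25.9 and is the first upstream position of both. The first downstream positions scored 83.9 on the MRPL46 side and 33.3 on the MRPS11 side. MRPS18B and PPP1R10 (597 bp apart) also had 1 midpoint between them, and MRPS18C and HELQ (235 bp) had none. For MRPL21 and IGHMBP2, 59 bp apart, the scores were 58.0 and 9.87, and for MRPL37 and CYB5RL, 137 bp apart, 58.0 and 13.6, so a shared gap could have a high position on the MRPL side and a low one on the other.

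Motifs were searched as exact letters on both strands from 250 bp before to 50 bp after the TSS. ETS letters were found in 32 of 78 genes, or 41.0% (interval 30.0% to 52.7%), against 14.2% of all promoter windows and 16.6% of the comparison genes. YY1 letters were found in 13 genes, or 16.7% (interval 9.18% to 26.8%), against 2.87% and 3.40%. NRF1 letters (GCATGCGC) were found in 7 genes, or 9.0% (interval 3.68% to 17.6%), against 4.20% and 4.26%. The cytosolic ribosomal protein genes had 34.9% for ETS and 11.6% for YY1 letters, and the proteasome genes 38.5% and 10.3%. In the 30 other genes of mitochondrial translation ETS letters were in 46.7% and NRF1 letters in 13.3%, both above the members' shares. YY1 letters were in 10.0% of them. SP letters (GGGCGG) were in 60.3% against 61.7% of all genes, NF-Y letters (CCAAT) in 28.2% against 35.7%, and TATA letters (TATAAA) in 5.1% against 9.74%. CRE (TGACGTCA) and ZNF143 (ACTACAAT) letters were each found in 1 gene, against 2.72% and 0.685% of all genes. In MRPL17, which held NRF1 letters at 3 places, 2 of the matches overlapped.

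Matches to ETS letters lay mostly in DNA that no position covered. Of 44 ETS matches, 30 were outside every 140-bp position (68.2%, interval 52.4% to 81.4%), and of all ETS matches in protein-coding promoters 54.8% were. Of all bases in the windows searched, 55.2% were outside positions in the 78 genes and 40.8% in all genes, so the ETS value stands above its own base level by a margin that lies within its interval. YY1 matches lay outside in 10 of 14 (71.4%, against 71.0% of all YY1 matches) and NRF1 matches in 5 of 9 (55.6%, against 54.9%), so neither share stood above that of all genes. ETS matches had a median centre at −21 bp and YY1 matches at 12.5 bp. In 9 of the 13 genes with YY1 letters their ATG was the start codon (69.2%), against 256 of 548 such genes overall (46.7%). The shorter leaders of the members were not matched there, and their part was not tested. Of the 9 matches over a start codon, 8 were uncovered, the exception being that of MRPS30.

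**Figure D5:**
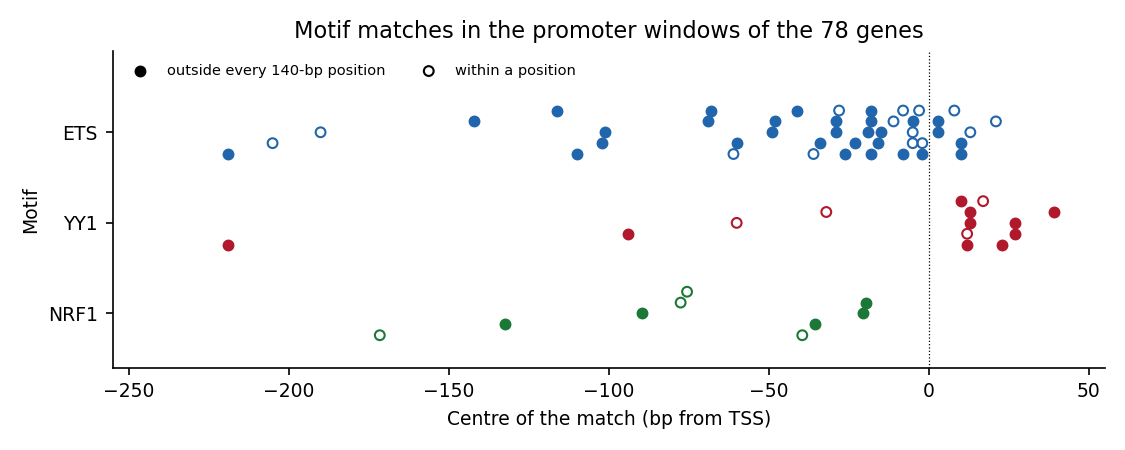
Centre of each match to ETS (44), YY1 (14) and NRF1 (9) letters in bp from the TSS over the promoter windows of the 78 genes. Filled points lie outside every 140-bp position (30, 10 and 5), open points within one, and the YY1 matches crowd just downstream of the TSS.

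A gap above the level of the comparison genes was found with and without the letters. The median was 330 bp in the 32 genes with ETS letters and 300 bp in the 46 without, and 270 bp in the 13 with YY1 letters and 310 bp in the 65 without. At least 300 bp was found in 5 of the 13 with YY1 letters and 38 of the 65 without, and these differences were not tested. Over all protein-coding genes the medians were 250 bp with and 220 bp without the letters, for ETS and for YY1 alike, so YY1 letters went with the smaller gap among the members and with the larger one among all genes. Of the first 5 genes by symbol with NRF1 letters, MRPL10, MRPL22 and MRPL32 held them in the uncovered stretch, with gaps of 220, 320 and 440 bp. In MRPL17 and MRPL52, with gaps of 190 and 140 bp, the letters lay under a position. A match to letters is a description and says nothing of whether a factor was bound.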

How the data were processed

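The authors trimmed reads with Trimmomatic 0.40 (per the labels), mapped them to GRCh38 and called positions in the nucMACC workflow after excluding blacklisted regions. Which runs were pooled, and the calling program, are not given in the sources used here. Scores in the deposited file are a signal, never negative, and their scaling by the authors is not stated. The list was used unfiltered. Midpoints (start + 70) were set against canonical starts of GENCODE release 44 on the hg38 genome. The paper's methods name a later release. Densities used 10-bp bins smoothed over 5 bins, with flanks of 1000 to 1500 bp. The +1 maximum was sought from 0 to 300 bp and the −1 maximum from 400 to 100 bp upstream. Read totals are not in the list, so no sampling error of a score is given. Intervals are exact Clopper-Pearson at 95%.

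The members and lists were chosen with earlier results of these data known. Genes named are the 5 widest and 5 narrowest gaps, the 5 highest and 5 lowest first downstream scores, members of known role, the MRPS18 paralogues, divergent neighbours of these and the first 5 by symbol with NRF1 letters, with ties broken by symbol. The sequence of 1 of the 8 ETS windows is not reported here. Genes printed as sequences, and MRPL43 and MRPL49 with their neighbours, were named after values were seen, and so was MRPL27. Alternatives are other start sites, stricter positions, other GC windows and bins, other thresholds and other comparison genes. Calculations used Python 3.11.15, NumPy 2.4.6, pandas 2.3.3, SciPy 1.17.1, pysam 0.24.0 and matplotlib 3.10.9, and the measures were tested on simulated positions.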

Additional observations from a re-analysis of the deposited data

How the results depend on the processing

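No paired analysis was possible because the data are 1 pooled list without replicates, and for the same reason no library could be left out. Of 42 alternative values, 24 stayed within 10 bp, 1 score step or the counting interval, 17 moved and 1 changed sign. The cause of each shift was not tested except where stated. From the 5′-most annotated start, the median gap was 295 bp, its excess over the comparison genes 75 bp and the median first downstream score 28.4. With weak positions (below the median score) left out, the gap was 350 bp, the excess 20 bp, the share with at least 300 bp 78.2%, and the heights of the +1 and −1 maxima 6.74 and 2.50. Fewer positions remain there by construction. At a limit of 400 bp the share was 16.7% (8.59% of the comparison genes). The excess was 70 bp when comparison genes were weighted by CpG observed over expected and 60 bp against genes with ETS letters, which with the share at stricter positions and the values for RefSeq starts and without MRPL45 were chosen after seeing the data. With RefSeq starts (69 genes) it was 100 bp. Bins of 25 bp, whose smoothing spans a longer stretch, put the +1 maximum at 112.5 bp with a height of 1.56, and weights by score gave 7.92. Members with no other start within 1000 bp had the −1 maximum at −215 bp. The excess of the first downstream score, 6.17, was 4.32 for the best position from 0 to 300 bp. The MRPL minus MRPS difference of −40 bp became −55 bp with MRPS30 and MRPS18A counted as large-subunit genes. The difference by divergent neighbour turned from 5 to −10 bp at 500 bp, which is at the resolution of the list. Pooled libraries, an unknown read depth and unmeasured expression limit all values.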
